A study of Mus musculus with 8 samples.

Results

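The Hox genes are the homeobox transcription factor genes of 4 clusters, Hoxa, Hoxb, Hoxc and Hoxd, and they were taken here as every gene symbol made of Hox, a cluster letter and a number. This rule used no measured value and found 39 genes among the 24346 symbols of each table, with 11 in Hoxa, 10 in Hoxb, 9 in Hoxc and 9 in Hoxd. All 39 Hox genes of the annotation were present.

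Hox proteins bind DNA together with cofactors of the Pbx, Meis and Pknox families and give cells an address along the body axis. Genes with the same number in different clusters are paralogues, and low numbers are used from the hindbrain backwards whereas high numbers are added towards the tail. Fibroblasts keep much of this pattern in the adult, and the posterior genes of Hoxa and Hoxd are known for their part in shaping the hindgut and the urogenital tract.

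Stromal cells were sorted from whole colons of mice aged 12 weeks as live cells with Podoplanin and without CD45, CD31 or EpCAM, and full-length cDNA of their RNA was sequenced. In the 4 cKO libraries the mice carried both alleles of Il10ra as flox alleles and a Pdgfra-cre transgene, which drives recombination in Pdgfra-expressing mesenchymal cells and not in 1 fibroblast type alone. In the 4 WT libraries the mice carried the same Il10ra flox/flox alleles without the transgene, so both groups shared the floxed alleles and the transgene and the deletion cannot be told apart. The study's title names the question as what the interleukin-10 receptor does in fibroblasts. Because the whole colon was pooled into 1 sort, proximal and distal stroma were measured together.

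Levels are FPKM, sequenced fragments of a gene relative to its transcript length and to the size of the library, so that levels of different genes are compared per length. Fibroblast markers dominated every library, with a summed level of 14609 to 17147 FPKM over 8 of 8 markers in cKO libraries and 15741 to 16423 FPKM in WT libraries. Il10ra had 0.439, 0.273, 0.633 and 0.636 FPKM in cKO libraries against 0.842, 0.665, 0.614 and 0.403 FPKM in WT libraries, so the groups overlapped; the value covers the whole gene and does not check the deletion. Depth relative to the mean library ran from 0.858 to 1.08. A pair of libraries stood apart. The summed level of 10 epithelium markers was 836 FPKM in cKO replicate 1 and 459 FPKM in cKO replicate 2, against 42.5 and 119 FPKM in the other cKO libraries and 48.7 to 107 FPKM in WT libraries. Values without 1 or both of these libraries are also given for Hoxb7, Hoxb13, Cdx1, the Hoxb and Hoxd shares and the Hox genes called. Other results hold both unless stated. Smooth muscle markers summed to 14.4 to 18.6 FPKM in cKO and 11.1 to 19.0 FPKM in WT libraries. Endothelium markers summed to 3.50 to 10.1 FPKM in cKO and 2.70 to 4.38 FPKM in WT libraries, and glia and neuron markers to 2.21 to 2.97 FPKM in cKO and 1.69 to 2.27 FPKM in WT libraries, with Elavl4 at 0 in all 8. Leukocyte markers summed to 61.5 to 137 FPKM in cKO and 64.0 to 96.4 FPKM in WT libraries, and mesothelium markers to 8.32 to 105 FPKM in cKO and 10.3 to 17.7 FPKM in WT libraries, where Krt19, which epithelium also expresses, made up most of the sum in all but cKO replicate 4. The highest leukocyte, endothelium, mesothelium, and glia and neuron sums were all those of cKO replicate 1, which also had the lowest fibroblast sum, 14609 FPKM.

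WT colon stroma used Hox genes of all 4 clusters, and groups 9 to 13, the posterior ones, held 61.7 ± 2.19% of the summed Hox level (SD, n = 4). Of the 39, 12 had a mean of at least 1 FPKM in WT libraries, namely 4 of 11 in Hoxa, 2 of 10 in Hoxb, 2 of 9 in Hoxc and 4 of 9 in Hoxd. Paralogue groups 9 to 13 gave 7 of their 16 members and groups 1 to 8 gave 5 of their 23. The 12 genes are 30.8% of the Hox genes, against 46.6% of all symbols that reached that level in WT libraries. Only Hoxc12 was listed at 0 in all 8 libraries.

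**Figure D1:**
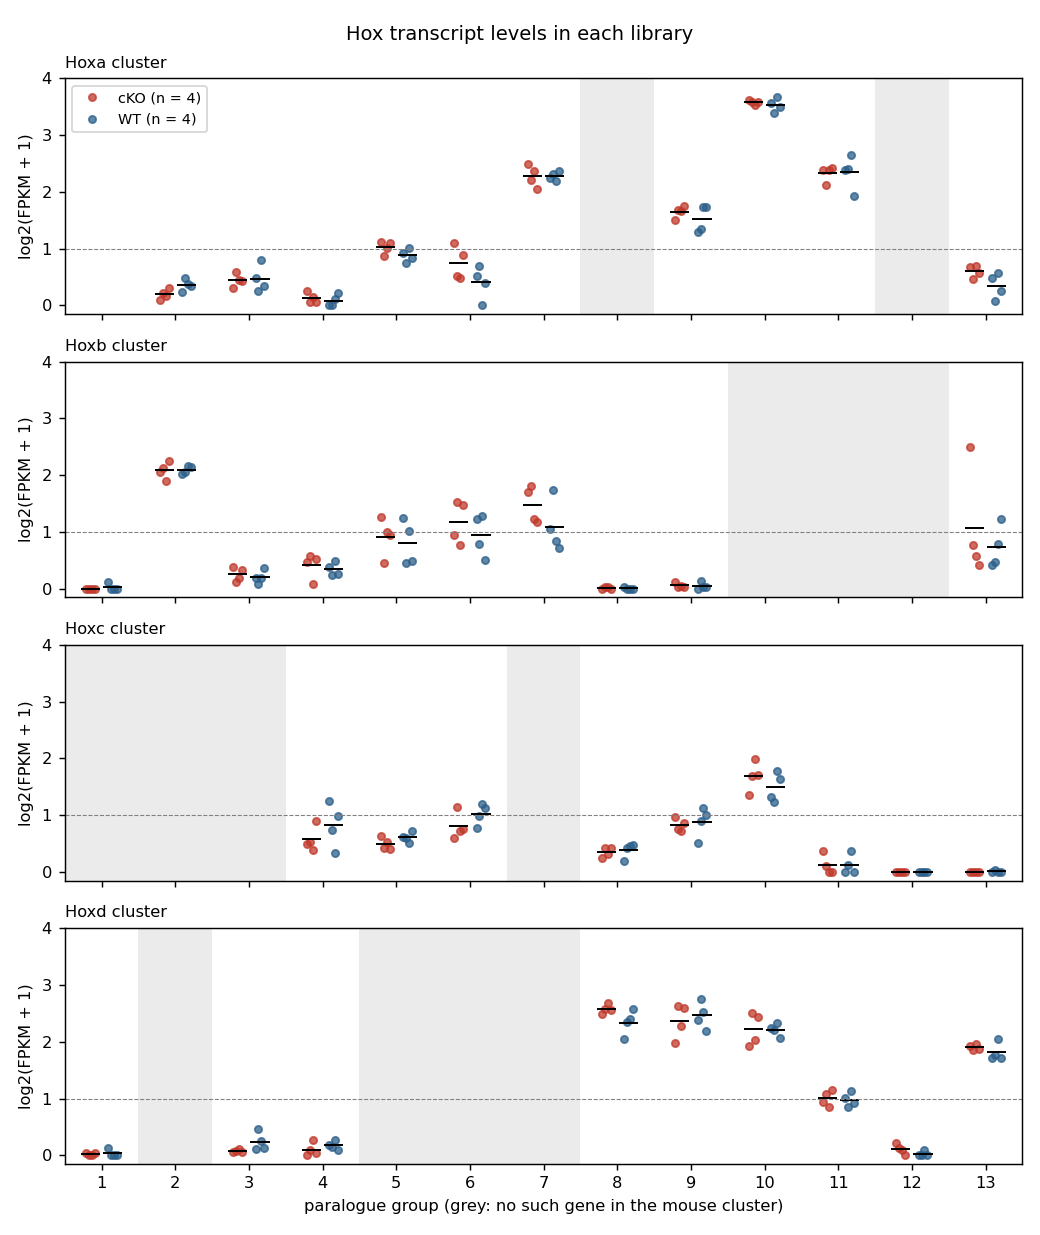
Level of Hox genes in each library as log2(FPKM + 1), by cluster (panels) and paralogue group (horizontal axis), with cKO libraries left of WT libraries, a line at each group mean (n = 4 each) and a dashed line at 1 FPKM. Hoxa10 stands above all other members, and groups 7 to 10 hold most of the remaining signal.

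Hoxa10 was the most abundant member. It patterns the lumbar region and the female reproductive tract. It had 11.3, 11.0, 10.5 and 11.0 FPKM in cKO libraries against 10.8, 9.48, 11.8 and 10.4 FPKM in WT libraries, and all cKO values lay inside the WT range. Its WT mean of 10.6 ± 0.967 FPKM (SD, n = 4) lay at the 77.8th percentile of all symbols. It made up 19.6 ± 0.375% of the summed Hox level in cKO libraries and 20.3 ± 1.20% in WT libraries (SD, n = 4 each).

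In the order of WT means Hoxa10 was followed by Hoxd9 at 4.58 FPKM, Hoxa11 at 4.16 FPKM, Hoxd8 at 4.10 FPKM, Hoxa7 at 3.87 FPKM, Hoxd10 at 3.63 FPKM and Hoxb2 at 3.29 FPKM. Hoxd13, a gene of the digits, the hindgut and the genital tubercle, came next at 2.53 FPKM, before Hoxa9 at 1.92 FPKM, Hoxc10 at 1.84 FPKM, Hoxb7 at 1.21 FPKM and Hoxc6 at 1.04 FPKM. Of the 38 neighbouring pairs in this order, only Hoxa10 and Hoxd9 had WT ranges that did not overlap. Against a median of 9.52 FPKM over all tested genes in WT libraries, the tested Hox genes had a median of 3.29 FPKM.

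Within Hoxa (chromosome 6, bases 52155590 to 52260880, mm10) the level lay mainly in Hoxa7 to Hoxa11 and not in Hoxa13 at the 5′ end. Hoxa7, Hoxa9, Hoxa10 and Hoxa11 passed 1 FPKM, and groups 9 to 13 held 73.2 ± 1.92% of the Hoxa level in cKO and 73.5 ± 2.26% in WT libraries (SD, n = 4 each). Hoxa13, which acts in the hindgut, the limb and the urogenital sinus, lies last in this cluster and averaged 0.523 FPKM in cKO and 0.279 FPKM in WT libraries. Hoxa5, which acts in lung and stomach mesenchyme, averaged 1.04 FPKM in cKO and 0.846 FPKM in WT libraries. Hoxa3, which acts in the thymus and parathyroid, averaged 0.361 FPKM in cKO and 0.401 FPKM in WT libraries, and Hoxa4 0.0967 FPKM in cKO and 0.0600 FPKM in WT libraries.

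Within Hoxd (chromosome 2, bases 74668310 to 74765142) the expressed genes did not form 1 run. From the 5′ end, Hoxd13 averaged 2.53 FPKM in WT libraries and its neighbour Hoxd12, also a gene of the limb, 0.0171 FPKM. Hoxd11 followed at 0.972 FPKM and Hoxd10, Hoxd9 and Hoxd8 at 3.63, 4.58 and 4.10 FPKM. Hoxd4, Hoxd3 and Hoxd1 lay between 0.0245 and 0.186 FPKM. The low level of Hoxd12 between Hoxd13 and Hoxd11 was also seen in cKO libraries, at 0.0773 ± 0.0642 FPKM (SD, n = 4).

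In Hoxb (chromosome 11, bases 96194316 to 96368256) the member with the highest mean in each group was Hoxb2, an anterior gene best known from the hindbrain. It had 2.75 to 3.76 FPKM in cKO and 3.08 to 3.50 FPKM in WT libraries. In cKO replicate 1 Hoxb13 was higher, at 4.64 FPKM against 3.18 FPKM for Hoxb2. Hoxb7 passed 1 FPKM in WT libraries, Hoxb6 lay just below at 0.983 FPKM, and Hoxb1, Hoxb8 and Hoxb9 had group means of at most 0.0412 FPKM. Hoxb5, known from vagal neural crest and gut mesenchyme, averaged 0.922 ± 0.422 FPKM in cKO and 0.797 ± 0.493 FPKM in WT libraries (SD, n = 4 each). Hoxb3 and Hoxb4, the second a regulator of blood stem cells, averaged 0.196 and 0.345 FPKM in cKO and 0.156 and 0.273 FPKM in WT libraries. In Hoxc (chromosome 15, bases 102921103 to 103036852) Hoxc10 and Hoxc6 passed 1 FPKM in WT libraries, and Hoxc11, Hoxc12 and Hoxc13, a gene known from hair and nails, did not exceed 0.298 FPKM in any library. Hoxc6 averaged 0.768 ± 0.307 FPKM in cKO and 1.04 ± 0.260 FPKM in WT libraries, and Hoxc4 0.507 ± 0.251 FPKM in cKO and 0.822 ± 0.468 FPKM in WT libraries (SD, n = 4 each), and both overlapped between the groups. Hoxc5, Hoxc8 and Hoxc9 averaged 0.414, 0.282 and 0.779 FPKM in cKO and 0.532, 0.314 and 0.875 FPKM in WT libraries. Groups 9 to 13 held 61.4 ± 5.59% of the Hoxc level in cKO and 50.2 ± 8.92% in WT libraries, with overlapping ranges. Hox levels are compared here per length only, and 16 of the 39 genes share exon bases with another annotated gene, 10 of them with a gene on the opposite strand. The library preparation is not stated to keep strand, so the levels of Hoxa11 (35.0% of exon bases shared, with Hoxa11os), Hoxb3 (52.9%, with Hoxb3os), Hoxb2 (27.3%, with Hoxb3os) and Hoxa7 (20.4%, with Hoxaas3) are uncertain. Hoxd3 (62.8%) shares bases with Hoxd4 on its own strand, where strand would not separate them, as well as with genes on the opposite strand, whereas Hoxa10, Hoxd8, Hoxd9 and Hoxd13 share none.

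**Figure D2:**
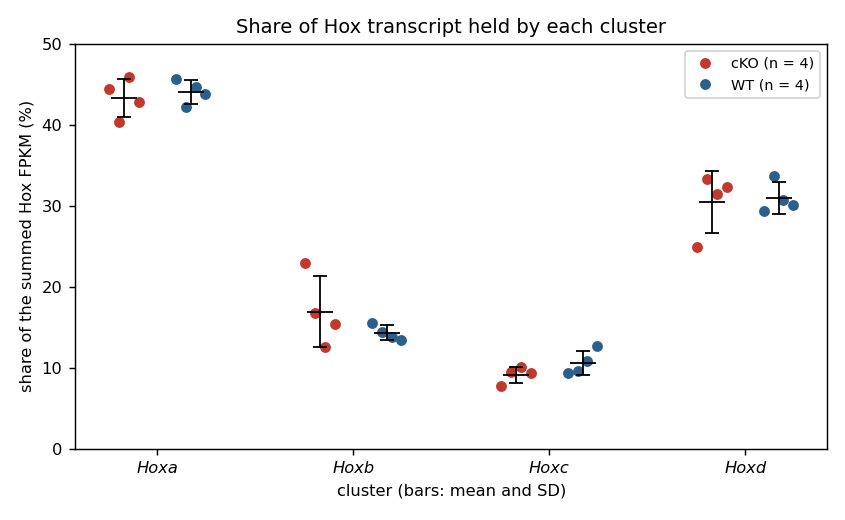
Share of the summed FPKM of all 39 Hox genes held by each cluster, in percent, with 1 point per library, cKO left of WT, and bars for the mean and SD (n = 4 each). Hoxa holds the largest share in each library, and cKO replicate 1 gives the highest Hoxb and the lowest Hoxd share.

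By cluster, Hoxa held 43.4 ± 2.34% of the summed Hox level in cKO and 44.1 ± 1.47% in WT libraries (SD, n = 4 each). Hoxd held 30.5 ± 3.84% in cKO and 31.0 ± 1.92% in WT libraries, Hoxb 16.9 ± 4.37% in cKO and 14.3 ± 0.917% in WT libraries, and Hoxc 9.17 ± 0.980% in cKO and 10.6 ± 1.50% in WT libraries. The group ranges overlapped for all 4 clusters. Without cKO replicate 1 the cKO share of Hoxb was 14.9% and that of Hoxd 32.4%, and without cKO replicates 1 and 2 the share of Hoxd was 31.9% and that of Hoxb 14.01%. Paralogue group 10 alone held 30.5 ± 2.16% in cKO and 30.8 ± 1.57% in WT libraries, and groups 9 to 13 together 61.4 ± 0.531% in cKO and 61.7 ± 2.19% in WT libraries. In bulk RNA, fewer cells of a type and less RNA per cell cannot be told apart, and a mixture of fibroblasts with different Hox sets gives the same sums as 1 uniform set.

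Sequences before the transcription start are shown for 4 genes that span the range of levels, the most abundant member Hoxa10, the neighbours Hoxd13 and Hoxd12, of which only Hoxd13 reached 1 FPKM, and Hoxb8, which was close to 0. They are the 250 bases before a start site from RefSeq (GRCm38.p6), 5′ to 3′ on the gene's strand, and cover chr6:52234940-52235189 (minus), chr2:74667975-74668224 (plus), chr2:74674763-74675012 (plus) and chr11:96281655-96281904 (plus). Capitals mark TATAAA, the core of the TATA box, and CAATAAA, letters bound by Cdx and posterior Hox proteins, each on either strand, where they read TTTATA and TTTATTG.
Hoxa10: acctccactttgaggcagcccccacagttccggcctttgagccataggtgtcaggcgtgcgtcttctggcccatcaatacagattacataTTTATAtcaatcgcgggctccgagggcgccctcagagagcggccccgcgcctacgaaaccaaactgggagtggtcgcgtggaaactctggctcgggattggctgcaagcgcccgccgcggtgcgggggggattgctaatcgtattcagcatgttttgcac
Hoxd13: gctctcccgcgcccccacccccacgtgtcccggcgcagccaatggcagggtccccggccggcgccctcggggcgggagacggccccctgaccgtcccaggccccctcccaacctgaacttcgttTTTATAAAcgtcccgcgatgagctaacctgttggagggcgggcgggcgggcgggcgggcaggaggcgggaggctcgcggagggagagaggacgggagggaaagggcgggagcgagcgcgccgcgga
Hoxd12: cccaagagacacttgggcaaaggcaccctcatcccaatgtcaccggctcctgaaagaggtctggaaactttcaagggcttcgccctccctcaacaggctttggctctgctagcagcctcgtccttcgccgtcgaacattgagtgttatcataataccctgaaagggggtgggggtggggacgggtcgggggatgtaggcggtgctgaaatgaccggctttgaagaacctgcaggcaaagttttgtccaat
Hoxb8: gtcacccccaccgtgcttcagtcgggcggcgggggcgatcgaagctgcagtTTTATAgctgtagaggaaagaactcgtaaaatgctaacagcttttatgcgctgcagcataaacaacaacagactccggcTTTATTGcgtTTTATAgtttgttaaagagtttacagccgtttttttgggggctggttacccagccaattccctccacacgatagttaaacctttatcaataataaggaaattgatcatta
In these 4 genes the marked letters did not follow the levels. Hoxd13 holds a TATAAA on each strand in 1 overlapping stretch and the Hoxa10 window shown holds 1, whereas the window of the other Hoxa10 start in RefSeq, chr6:52240855-52241104 (minus), holds none. Hoxb8, with at most 0.0222 FPKM in any library, holds 2 and also the CAATAAA, and Hoxd12 holds neither. RefSeq windows were found for 22 of the 39 genes, in 24 windows. TATAAA occurred in 4 of the 24 (16.7%), against 12.4% of the 32851 windows of all genes, and CAATAAA in 1 (4.17%), against 4.20%. The windows with TATAAA were those of Hoxd13, Hoxb8 and Hoxd4 and the Hoxa10 window shown. They were 2 of 9 windows (22.2%) of genes with a WT mean of at least 1 FPKM and 2 of 15 (13.3%) below. These windows are too few to relate the letters to the levels. Hox windows had a median of 58.6% G and C and 12.5 CpG, against 52.4% and 6 for all windows. A match describes these letters only.

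No Hox gene was called different between cKO and WT libraries. Values were compared on the log2(FPKM + 1) scale, which understates changes of low genes, with limma over the 11506 genes with a mean of at least 1 FPKM in the 8 libraries, and a gene was called at a Benjamini-Hochberg adjusted p under 0.05. Over all tested genes 1 was called (0.00869%), the microRNA gene Mir5098, whose value from full-length cDNA does not measure the mature microRNA. Of the 13 Hox genes tested 0 were called higher and 0 lower. None of the 13 passed 0.05 before adjustment, as 2.37% (higher) and 3.03% (lower) of all tested genes did, and their smallest adjusted p was 0.897. The groups overlapped for each of the 13, whereas all cKO values lay above all WT values for 1.36% of the tested genes and below them for 1.9%. Without the filter 38 Hox genes could be tested, and 0 were called (all genes: 0.00554%), with 3 that passed 0.05 before adjustment, as did 5.2% of all genes. Without cKO replicates 1 and 2, 12 Hox genes could be tested with the filter and 0 were called, against 4 of all 11384 genes tested.

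The intervals show which sizes of change these libraries leave possible. For Hoxa10 the log2 difference was 0.04 (SE 0.07, 95% interval -0.12 to 0.20, limma adjusted p = 0.973). For Hoxd13 it was 0.09 (interval -0.14 to 0.31), and 0.17 without WT replicate 3, its highest WT library. For Hoxb2 it was -0.01 (interval -0.23 to 0.20). Of the 13 tested genes, 9 had an interval inside ±0.5, a fold of 1.41 on this scale. The other 4, Hoxb6, Hoxb7, Hoxb13 and Hoxc10, had intervals that reached beyond these bounds on 1 side or both. Hoxb7 had the largest difference of the 13, 0.39 (interval -0.14 to 0.93). It was 0.32 without cKO replicate 1 and 0.28 without cKO replicate 2. Within-group SDs on the log2 scale had a median of 0.217 for the 13 genes and of 0.157 for the 5927 tested genes in the same range of levels.

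**Figure D3:**
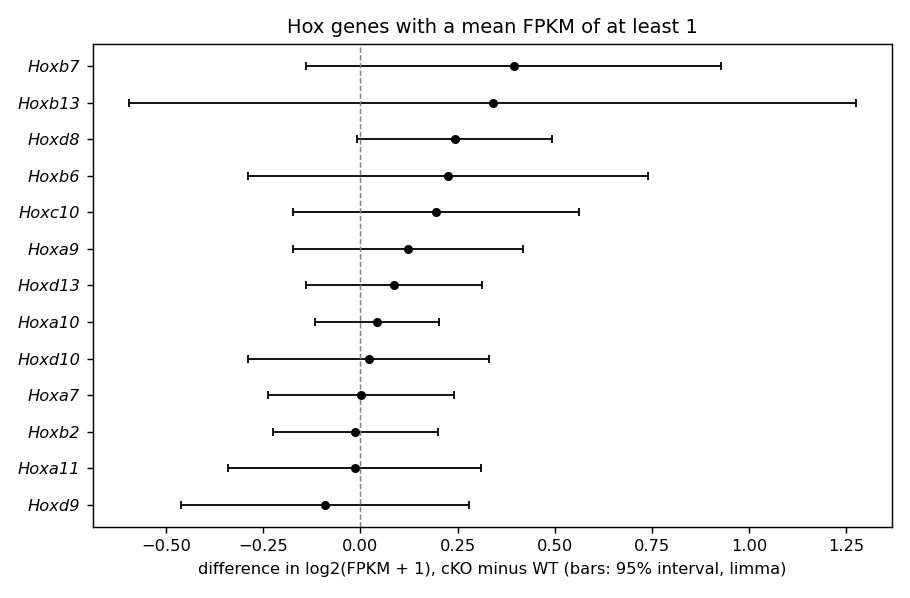
Difference in log2(FPKM + 1), cKO minus WT, for the 13 Hox genes with a mean of at least 1 FPKM, with points for the estimate and bars for the 95% interval from limma (n = 4 each). The interval of each gene includes 0, and that of Hoxb13 is the widest.

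Of the 13 tested genes 10 had a higher mean in cKO libraries, against 47.4% of all tested genes, with a median log2 difference of 0.09 against -0.01 for all tested genes. After quantile normalization 8 of the 13 had a higher mean. Without cKO replicates 1 and 2, 12 Hox genes were tested and 9 had a higher cKO mean. Hoxb13 and Hoxb6 passed the filter only through their cKO values. Hoxc6, at 1.04 FPKM in WT libraries, fell under it through its lower cKO mean of 0.768 FPKM. The count therefore describes the tested genes and not the family. Without the filter 21 of 38 Hox genes had a higher mean in cKO libraries, against 9309 of 18065 genes, and the median was 0.0077 against 0.0037. The 25 genes that only the unfiltered fit could test divided into 11 with a higher and 14 with a lower mean. The summed level of all 39 genes was 55.7 ± 2.43 FPKM in cKO and 52.2 ± 3.95 FPKM in WT libraries (SD, n = 4 each), and the groups overlapped.

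The tested gene with the smallest p was Hoxd8, which is expressed in the trunk and the kidney. It had 4.62, 4.99, 5.44 and 4.92 FPKM in cKO libraries against 3.13, 4.07, 4.25 and 4.96 FPKM in WT libraries. The WT library with 4.96 FPKM lay within the cKO range and the other WT libraries lay below it. The log2 difference was 0.24 (SE 0.11, interval -0.01 to 0.49, limma adjusted p = 0.897). Leaving out 1 library gave from 0.14, without WT replicate 1, its lowest library, to 0.32, without WT replicate 4, its highest WT library.

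The other 4 genes with the smallest p values were low in all libraries. Hoxa2, a gene of the second pharyngeal arch, had 0.0656, 0.168, 0.126 and 0.239 FPKM in cKO libraries against 0.173, 0.398, 0.304 and 0.269 FPKM in WT libraries, a log2 difference of -0.16 (limma without the filter, adjusted p = 0.914; two-sided exact permutation p = 0.0571). The lowest WT library lay within the cKO range. Hoxa13 had 0.604, 0.380, 0.625 and 0.483 FPKM in cKO libraries against 0.391, 0.0563, 0.478 and 0.191 FPKM in WT libraries, with a log2 difference of 0.26 (limma without the filter, adjusted p = 0.914; two-sided exact permutation p = 0.114). Without WT replicate 2, its lowest library, the difference was 0.17. The ranges overlapped at 0.380 to 0.478 FPKM, and Hoxa13 was the only posterior gene of this set. Hoxa6, a gene of the thoracic region, had 1.14, 0.425, 0.399 and 0.863 FPKM in cKO libraries against 0.437, 0.629, 0 and 0.320 FPKM in WT libraries, a log2 difference of 0.34 (limma without the filter, adjusted p = 0.914; two-sided exact permutation p = 0.2). WT replicate 3, at 0, was the lowest of the 8.

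Hoxd3, which patterns the neck vertebrae, was the only member whose groups did not overlap, against 2.94% of all genes without the filter. It had 0.0382, 0.0586, 0.0735 and 0.0397 FPKM in cKO libraries against 0.0805, 0.371, 0.197 and 0.0981 FPKM in WT libraries. Every cKO value lay below every WT value, by a gap of less than 0.01 FPKM between the nearest pair. The log2 difference was -0.17 (limma without the filter, adjusted p = 0.914), and the two-sided exact permutation p was 0.0286, the smallest that 4 against 4 libraries allow. Once scaled by relative depth, its values were whole multiples of 1 step, and how many fragments make a step is not known. They were 2, 3, 4 and 2 steps in cKO libraries and 4, 16, 10 and 5 steps in WT libraries. cKO replicate 3 and WT replicate 1 thus tied at 4 steps, and their FPKM differed only through library depth. The lack of overlap rests on that pair. Without WT replicate 2 the log2 difference was -0.09 (adjusted p = 0.978), and most exon bases of Hoxd3 are shared with other genes.

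Hoxb13, the most posterior gene of Hoxb and known from the prostate and the distal colon epithelium, had the largest spread, and it is described here because of the values seen. It had 4.64, 0.712, 0.491 and 0.338 FPKM in cKO libraries against 0.342, 0.394, 0.717 and 1.34 FPKM in WT libraries. cKO replicate 1 lay above all others, and the other cKO libraries lay within or just below the WT range. The log2 difference was 0.34 (SE 0.42, limma adjusted p = 0.957). Without cKO replicate 1 it was -0.14 in the unfiltered fit (SE 0.20, adjusted p = 0.957), with 0.514 ± 0.188 FPKM in 3 cKO libraries and 0.697 ± 0.457 FPKM in 4 WT libraries (SD). Without cKO replicates 1 and 2 it was -0.23 (limma without the filter, adjusted p = 0.907).

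The same library had the highest summed level of epithelium markers, and also of leukocyte, endothelium, mesothelium, and glia and neuron markers. Cdx1, a homeobox gene of intestinal epithelium, had 8.90, 2.69, 1.35 and 0.381 FPKM in cKO libraries against 1.05, 0.889, 0.755 and 0.582 FPKM in WT libraries. Epcam, an epithelial adhesion molecule that the sort selects against, had 34.7, 11.6, 3.41 and 1.27 FPKM in cKO libraries against 3.83, 3.77, 2.72 and 4.02 FPKM in WT libraries. Cdx2, an intestinal epithelial factor, was also highest in cKO replicate 1, at 1.75 FPKM. cKO replicate 2 came second for Hoxb13 among cKO libraries, and for Cdx1 and Epcam among all 8. In WT libraries Hoxb13 did not follow the epithelium sum. WT replicate 1 had the highest WT sum, 107 FPKM, and the lowest WT Hoxb13 level, 0.342 FPKM. WT replicate 3 had the lowest WT sum, 48.7 FPKM, with 0.717 FPKM of Hoxb13, and WT replicate 4 had 103 FPKM with 1.34 FPKM. The part of epithelial RNA in the Hoxb13 value was not tested. Hoxd13, also of paralogue group 13, had 2.61 to 2.87 FPKM in cKO libraries, with 2.78 FPKM in cKO replicate 1, against 2.29 to 3.15 FPKM in WT libraries.

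**Figure D4:**
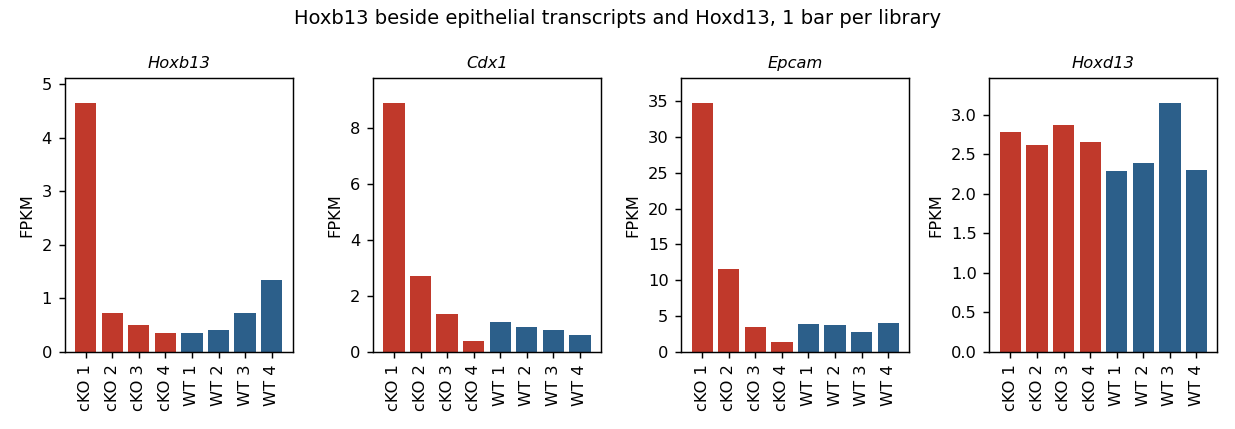
Level in FPKM of Hoxb13, Cdx1, Epcam and Hoxd13 with 1 bar per library, cKO libraries left of WT libraries. cKO replicate 1 is the highest library for Hoxb13 at 4.64 FPKM, for Cdx1 at 8.90 FPKM and for Epcam at 34.7 FPKM, and not for Hoxd13.

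The cofactor genes of the Pbx, Meis and Pknox families were called in neither direction, and 5 of the 9 had a higher WT mean than Hoxa10. Of the 9, 8 were tested, 6 had a higher and 2 a lower mean in cKO libraries, 0 were called, and the median log2 difference was 0.03. Pbxip1, which is no cofactor of Hox proteins but binds Pbx proteins and in human cells hinders their binding to DNA with Hox proteins, averaged 42.1 ± 1.26 FPKM in cKO and 42.4 ± 0.262 FPKM in WT libraries, Meis1 33.0 ± 4.93 FPKM in cKO and 31.9 ± 1.20 FPKM in WT libraries, and Meis3 24.4 ± 1.15 FPKM in cKO and 24.0 ± 1.02 FPKM in WT libraries (SD, n = 4 each).

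Pbx3 had the smallest p of the cofactors. It had 3.73, 3.68, 3.31 and 4.88 FPKM in cKO libraries against 3.10, 3.18, 2.69 and 2.67 FPKM in WT libraries, and each cKO value lay above each WT value. Groups did not overlap for 3.26% of all tested genes. The log2 difference was 0.32 (SE 0.11, interval 0.07 to 0.56, limma adjusted p = 0.897). Pknox2 averaged 8.39 ± 1.68 FPKM in cKO and 7.97 ± 0.862 FPKM in WT libraries (SD, n = 4 each), and its groups overlapped.

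**Figure D5:**
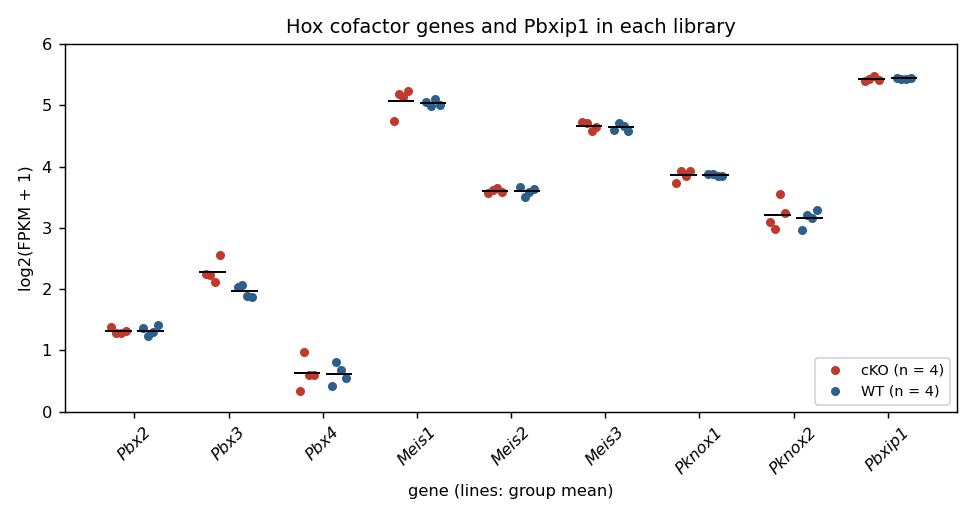
Level of 8 Hox cofactor genes and of Pbxip1 in each library as log2(FPKM + 1), with cKO libraries left of WT libraries and a line at each group mean (n = 4 each). Pbx3 is the only gene shown whose groups do not overlap.

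Chromatin regulators that keep Hox genes on or off showed no called gene. Of 15 activating regulators, such as the Kmt2 methyltransferase complexes, 14 were tested, with 4 higher and 10 lower means in cKO libraries and a median log2 difference of -0.02. The smallest p values belonged to Dot1l (adjusted p = 0.922), Wdr5 (adjusted p = 0.927) and Kmt2d (adjusted p = 0.951) in limma, and the most abundant were Dpy30, Psip1 and Men1, at 46.0, 29.2 and 20.3 FPKM in cKO and 46.9, 27.7 and 21.2 FPKM in WT libraries. Of 30 repressing regulators, mainly Polycomb proteins, 27 were tested, with 14 higher and 13 lower means and a median of 0.0043. Pcgf6, a Polycomb subunit, averaged 2.60 ± 0.289 FPKM in cKO and 2.08 ± 0.265 FPKM in WT libraries (SD, n = 4 each, limma adjusted p = 0.897). Phc2 and Rbbp7 followed, with adjusted p = 0.919 and 0.927 in limma. Rbbp7, Rbbp4 and Cbx6 were the most abundant, at 114, 47.8 and 27.5 FPKM in cKO and 121, 48.2 and 28.1 FPKM in WT libraries.

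Transcripts that lie among the Hox genes were mostly near 0. Of 19 antisense and microRNA genes 2 were tested, and neither was called. Hotairm1, which lies in Hoxa, averaged 4.55 ± 1.52 FPKM in cKO and 4.72 ± 2.84 FPKM in WT libraries, and Hoxa11os, antisense to Hoxa11, 4.18 ± 0.865 FPKM in cKO and 4.17 ± 0.696 FPKM in WT libraries (SD, n = 4 each). Hotair, which lies in Hoxc, did not exceed 0.132 FPKM in any library, and Hoxb5os averaged 0.846 FPKM in cKO and 0.851 FPKM in WT libraries. The microRNA genes Mir10a, Mir10b, Mir196a-1, Mir196a-2, Mir196b and Mir615 were listed at 0 in all 8 libraries. The libraries hold full-length cDNA, so these zeros do not show whether the mature microRNAs were present. Of 17 genes that flank the clusters 12 were tested and 0 were called, with 7 higher and 5 lower means. The smallest p values there belonged to Mtx2, Cbx1 and Skap2 (limma adjusted p = 0.897, 0.897 and 0.925), and the most abundant were Atp5g3, Tax1bp1 and Hnrnpa1, at 157, 74.4 and 65.1 FPKM in cKO and 165, 76.1 and 63.4 FPKM in WT libraries.

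Other genes that mark regions of the gut tube set the Hox levels in context. Of 28, 10 were tested and 0 were called, with 4 higher and 6 lower means in cKO libraries. Foxf1, a factor of gut mesenchyme, averaged 77.6 ± 4.73 FPKM in cKO and 79.0 ± 5.27 FPKM in WT libraries, Osr1 69.4 ± 6.03 FPKM in cKO and 69.9 ± 9.47 FPKM in WT libraries, and Nkx2-3, a factor of midgut and hindgut mesenchyme, 39.6 ± 1.92 FPKM in cKO and 38.0 ± 0.999 FPKM in WT libraries (SD, n = 4 each). The smallest p values were those of Cdx1, with the epithelial values above, Pitx1 and Nkx3-2 (limma adjusted p = 0.897, 0.929 and 0.929). The log2 difference of Cdx1 was 0.86 over all 8 libraries, 0.34 without cKO replicate 1 and -0.0091 without cKO replicates 1 and 2. Barx1, which marks stomach mesenchyme, did not exceed 0.0926 FPKM in any library, and Pdx1, Tlx1, Nkx2-5 and Cdx4 were listed at 0 in all 8. These genes do not speak for the rest of the list. Isl1 averaged 6.94 FPKM in cKO and 6.02 FPKM in WT libraries, and Nkx3-2 2.05 FPKM in cKO and 2.62 FPKM in WT libraries.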

How the data were processed

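RNA from sorted colon stroma was sequenced in 8 libraries, 4 cKO and 4 WT, grouped and numbered by their titles, with 4 mice a group in the design text. FPKM values were deposited by the authors in a separate table for each library. The submitters' processing notes name Cufflinks 2.2.1 and Cuffdiff, TopHat2 2.1.1 with Bowtie2 2.3.5.1, SAMtools 0.1.18 and the mm10 build, and the annotation is not given in the sources used here. Because FPKM is relative to a library's total, a large share taken by a few genes lowers all others. Fragment counts are not analysed here, and only relative depth was read, from the steps between low values. Of 36 Hox genes 13 lay on whole steps (tolerance 0.05), so no fragments are given. Library correlations of log2 values were 0.965 to 0.989.

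Values were tested as log2(FPKM + 1) with limma 3.58.1 in R 4.3.3 (eBayes with trend, 11506 genes with a mean of at least 1 FPKM, Benjamini-Hochberg). The procedure was also run on simulated data, drawn as independent normal values for genes past the filter. That run does not check low genes or libraries that stand apart. Hox genes below the filter were tested in the same fit without it and with an exact two-sided permutation test on FPKM, with no adjustment over the members alone. Python 3.11.15 with numpy 2.4.6, pandas 2.3.3, scipy 1.17.1 and matplotlib 3.10.9 was used for the rest. Exon sharing was read from GENCODE for GRCm38. Named with all values were members with a WT mean of at least 10 FPKM and the 5 with the smallest p in the unfiltered fit; of other lists, called genes or the 3 smallest p, and the 3 highest WT means. The members and lists were chosen with earlier results of these data known. Hoxb7, Hoxb13, Hoxd13, Epcam, Cdx2, Isl1 and members given for their place in a cluster were named after their values were seen. Alternatives were other pseudocounts, filters, scalings, variance models, the replicate block and leaving out each library. Leaving out cKO replicates 1 and 2 together was added after seeing the data.

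The replicate numbers are not stated to mark a shared litter or day, and the labels name no batch. Some members of the gene lists are counted but not reported by name here.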

Additional observations from a re-analysis of the deposited data

Results flagged for a closer look

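A library was singled out where its gap to the nearest of the other 3 libraries of its group, divided by the range of the group, passed Dixon's 95% critical value for 4 samples. Of 74 groups of the Hox genes, 5 had 1 library above 0, and these pass by construction. Of the other 69, 3 passed, and chance alone passes about 1 in 20 groups.

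Hoxb13 in cKO replicate 1 had 4.64 FPKM, against 0.338 to 0.712 FPKM in the other cKO libraries. That library has the highest sums of epithelium, leukocyte, endothelium, mesothelium, and glia and neuron markers. Hoxa11 in cKO replicate 2 had 3.36 FPKM, below 4.21 to 4.35 FPKM in the other cKO libraries. Hoxd13 in WT replicate 3 had 3.15 FPKM, above 2.29 to 2.38 FPKM in the other WT libraries.

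The 5 that pass by construction were WT libraries of genes listed at 0 in the rest of the WT group. WT replicate 1 had 0.0869 FPKM of Hoxb1, 0.0222 FPKM of Hoxb8 and 0.0981 FPKM of Hoxd1. WT replicate 2 had 0.0280 FPKM of Hoxc13, and WT replicate 3 had 0.0684 FPKM of Hoxd12.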

How the results depend on the processing

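Under each alternative run, 0 Hox genes were called in either direction. The count of all genes called was 1 in each alternative that kept all 8 libraries, and ranged from 1 to 4 when 1 library was left out, with 4 without cKO replicate 1, 3 without WT replicate 3 and 2 without cKO replicate 2. Without cKO replicates 1 and 2, chosen after seeing the data, it was 4. The number of Hox genes at 1 FPKM in WT libraries, 12, was 20 at a threshold of 0.5 FPKM and 1 at 5 FPKM, 14 after quantile normalization, and 12 to 13 with 1 WT library left out. Cluster shares moved by less than their SD.

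For single genes, 237 values kept their direction and their side of the threshold and 21 changed sign. Hoxb13, which fell under the filter without cKO replicate 1, moved in the unfiltered fit to -0.14 without that library and -0.23 without cKO replicates 1 and 2, and Cdx1 to -0.0091 without both. Quantile normalization gave -0.029 for Hoxa7 and -0.018 for Hoxd10. Leaving out 1 library gave log2 differences from -0.068 to 0.081 for Hoxa7, -0.0041 to 0.092 for Hoxa10, -0.15 to 0.087 for Hoxa11, -0.068 to 0.048 for Hoxb2, -0.18 to 0.038 for Hoxd9 and -0.074 to 0.12 for Hoxd10. The cause was not tested. Quantile normalization left 8 of the 13 tested Hox genes with a higher cKO mean, in place of 10.

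For the low genes, alternatives were chosen after seeing the data. Hoxd3 moved to -0.09 without WT replicate 2 (limma adjusted p = 0.978), Hoxa13 to 0.17 without WT replicate 2, and Hoxa6 to 0.21 without WT replicate 3 and 0.22 without cKO replicate 1. With a pseudocount of 0.1 the differences of Hoxa2, Hoxa13, Hoxd3 and Hoxa6 were -0.64, 0.87, -0.81 and 1.06, with adjusted p of 0.921 to 0.922.

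Deviations of libraries with the same replicate number correlated at 0.0182 to 0.0912, and 1 of 8 libraries correlated best with its own number. The replicate block gave 1 called gene, 0 Hox genes called and 2 Hox genes at an unadjusted p under 0.05.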
